A study of Mus musculus with 6 samples.

Results

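The genes described here encode the nuclear part of the mitochondrial respiratory chain: the subunits of complexes I to IV and of ATP synthase (complex V) that are made from nuclear genes. Members were the protein-coding genes of the GENCODE vM21 mouse annotation with symbols Ndufa, Ndufb, Ndufc, Ndufs or Ndufv plus a number, Sdha to Sdhd, Uqcr, Cyc1, Cox4i to Cox8, or Atp5. The assembly factors of the Ndufaf series and Ndufa4, Ndufa4l2, Ndufc2 and Atp5s were left out. This gave 82 genes out of 55450 annotated, of which 34 belong to complex I, 4 to complex II, 9 to complex III, 18 to complex IV and 17 to complex V. The rule used symbols and no measured value, though earlier results of these data were known when it was set. Cox7a2l, which encodes a factor that joins complexes III and IV into supercomplexes, entered by its symbol.

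Polyadenylated RNA was sequenced from the ventral lumbar spinal cord of C57BL/6 mice aged 5 weeks, with 3 wild-type (WT) libraries and 3 Gde2KO libraries. Gde2KO mice lack GDE2, the product of Gdpd5, a cell-surface enzyme that cuts the lipid anchor of some membrane proteins, and the series concerns Wnt signalling in neurons and the maturation of oligodendrocytes. The labels name no other allele and no treatment, and they do not say how the knockout was made, the sex of the mice, or whether a library came from 1 animal or several. P-values therefore measure the spread between these libraries, which may be partly technical.

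Electrons from NADH enter the chain at complex I and electrons from succinate at complex II. They pass through ubiquinone to complex III, through cytochrome c to complex IV, and there to oxygen. Complexes I, III and IV pump protons across the inner mitochondrial membrane, and ATP synthase uses the resulting gradient to make ATP. Complexes I, III, IV and V also contain subunits made from mitochondrial DNA, whereas all subunits of complex II come from nuclear genes. Firing and synaptic activity make neurons large consumers of this ATP, and spinal motor neurons carry long axons that are rich in mitochondria.

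The deposited values are FPKM, fragments scaled to assembled length and to library size. Levels of different genes are thus per length, but they also depend on the extent of the assembled transcripts, as described below. Orders of genes by level carry that limit. For each gene, FPKM was read at its counted exonic bases and averaged over them. Relative depth of the libraries lay between 0.910 and 1.14, with 1 as their average. Gde2KO replicate 3 stood apart. Over the members, the log2 differences between it and another library had a robust SD of 0.287 to 0.382, and those between any pair of the other 5 libraries 0.151 to 0.246. Over all genes tested these were 0.257 to 0.291 and 0.146 to 0.194. Xist, made from an inactive X, was listed at 0 in Gde2KO replicate 1 and lay between 1.30 and 2.61 FPKM in the other libraries. The Y-linked gene Ddx3y was listed at 0 in every library. It had 0 counted bases, which need at least 3 libraries, so it could not show whether 1 library assembled it. The sex of the mice cannot be read from these values. The targeted gene Gdpd5 stood at 5.38, 6.54 and 5.95 FPKM in WT and 1.24, 1.20 and 0.946 FPKM in Gde2KO, a fold of 0.202 (limma adjusted p = 0.00526). Summed levels of neuron markers ran from 3808 to 4682 FPKM and those of oligodendrocyte markers from 6224 to 9304 FPKM. Of 8 skeletal muscle markers 6 were listed at 0 in every library, and their summed level was 0.843 to 2.27 FPKM. Summed markers of meninges and connective tissue were 33.2 FPKM in Gde2KO replicate 1 and 67.6 to 89.0 FPKM elsewhere.

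The respiratory chain genes were among the most abundant messages of the ventral cord. Of the 82 members, 79 passed the filters for testing, at least 200 counted bases and a mean of at least 1 FPKM over the 6 libraries. Their median level was 145 FPKM, against 7.91 FPKM over all 12894 genes tested. Of the 79, 57 reached 100 FPKM (72.2%, against 4.47% of all genes tested), and 70 lay in the top 10% of genes by level. Complex medians were 122 FPKM for complex I, 106 for complex II, 179 for complex III, 246 for complex IV and 253 for complex V. The messages were also short, with a median of 554 counted bases against 2763 over all genes tested. Not tested were Cox6a2 and Cox8c, described with the tissue forms, and a second annotation of Atp5o that shares all its bases with the first.

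**Figure D1:**
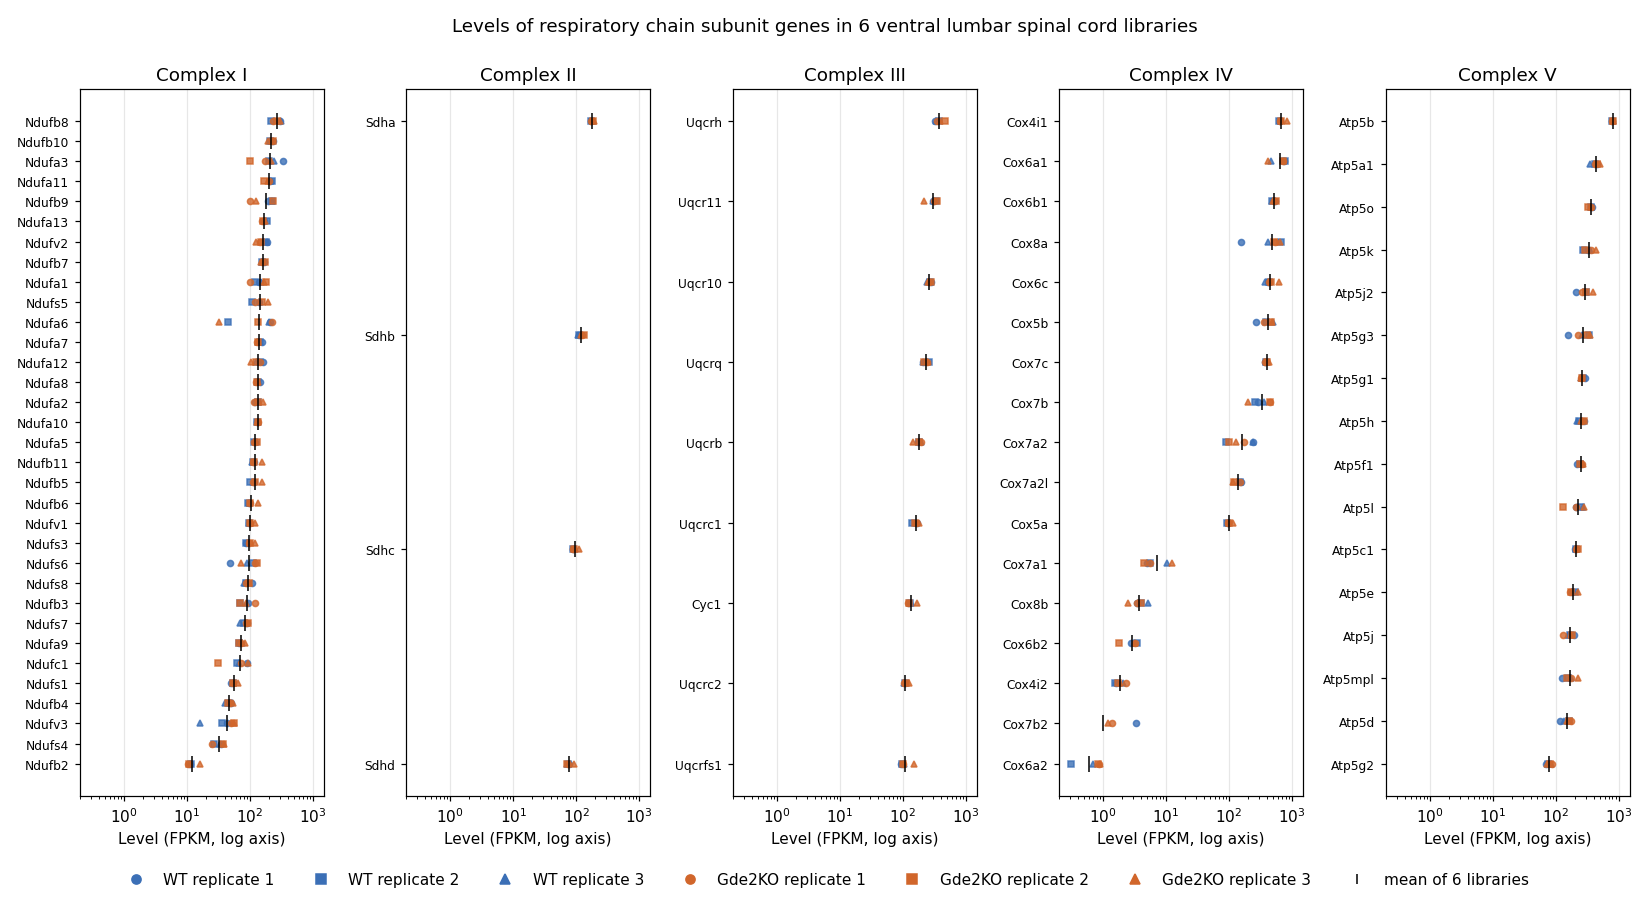
FPKM level (log axis) of the members reported here in each of the 6 libraries, by complex, with the mean as a black tick; libraries listed at 0 are not drawn. Most members lie near or above 100 FPKM, and the members under 10 FPKM are those of complex IV known as tissue forms.

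In complex I the core subunits described here averaged between 55.5 and 162 FPKM. Among the core subunits of the NADH-oxidising module, Ndufv2, an iron-sulfur protein, averaged 162 ± 25.4 FPKM (SD over 6 libraries), Ndufv1, which binds the flavin, 103 ± 9.28, and Ndufs1, an iron-sulfur protein, 55.5 ± 5.45. Among the core subunits that carry electrons on to ubiquinone, Ndufs3 averaged 98.5 ± 12.4, Ndufs8 93.6 ± 8.99 and Ndufs7 85.7 ± 8.79 FPKM. In that order, neighbours of this second group differed by less than the SD of either. The highest level in the complex was that of an accessory subunit of the membrane arm, Ndufb8, at 303, 221 and 310 FPKM in WT and 235, 267 and 307 FPKM in Gde2KO. WT and Gde2KO libraries of Ndufb8 overlapped across nearly the whole range. The lowest was Ndufb2, also an accessory subunit, with a mean of 12.01 FPKM. That level was averaged over 4118 counted bases, against a median of 731.5 in complex I. The leading assembled transcript of Ndufb2 was 4231 to 4647 bases long, of which the last exon took 3860 to 3893 bases. The leading transcript of the members had a median length of 655 bases.

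Complex II feeds electrons from succinate into the chain and is also an enzyme of the citric acid cycle. Its flavoprotein gene Sdha was highest, at 175, 175 and 185 FPKM in WT and 172, 182 and 195 FPKM in Gde2KO. The iron-sulfur subunit gene Sdhb averaged 118 ± 10.1 FPKM, and the genes of the membrane anchors, Sdhc and Sdhd, 94.4 ± 8.52 and 76.7 ± 8.32 FPKM (SD over 6 libraries). In every library the order was Sdha, Sdhb, Sdhc, Sdhd.

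Complex III was led by the small hinge protein gene Uqcrh, at 328, 382 and 340 FPKM in WT and 350, 468 and 387 FPKM in Gde2KO. The genotypes overlapped, and the highest value was in Gde2KO replicate 2. The catalytic subunits were lower: the cytochrome c1 gene Cyc1 averaged 134 ± 16.9 FPKM and the Rieske iron-sulfur protein gene Uqcrfs1 109 ± 20.2 FPKM (SD over 6 libraries). The core protein genes Uqcrc1 and Uqcrc2 averaged 161 and 111 FPKM. All 9 genes of the complex averaged over 100 FPKM.

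ATP synthase held the highest level of all members. The beta subunit gene Atp5b, whose product carries the catalytic sites, stood at 793, 797 and 801 FPKM in WT and 788, 827 and 825 FPKM in Gde2KO. Its highest library was 1.05 times its lowest. The other genes of the catalytic head and stalk, which contain several copies of alpha and beta but 1 each of gamma, delta and epsilon, were lower: alpha (Atp5a1) 435 FPKM, gamma (Atp5c1) 214, epsilon (Atp5e) 189 and delta (Atp5d) 151 FPKM. Atp5o, for the protein that ties the head to the peripheral stalk, averaged 362 ± 20.5 FPKM (SD over 6 libraries).

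Subunit c, the ring that turns with the proton current, is made from 3 genes that encode the same mature protein behind different import sequences. Atp5g1 stood at 296, 272 and 249 FPKM in WT and 254, 264 and 251 FPKM in Gde2KO. Atp5g2 stood at 69.7, 75.2 and 85.3 FPKM in WT and 88.0, 82.0 and 73.3 FPKM in Gde2KO. Atp5g3 stood at 155, 333 and 263 FPKM in WT and 227, 317 and 347 FPKM in Gde2KO. Atp5g2 was the lowest of the 3 in every library, with 10.9% to 15.5% of their sum, while Atp5g1 and Atp5g3 changed order between libraries.

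The tissue forms of complex IV were distributed as follows. Cox4i1, the common form of subunit 4, had the highest level of the complex, at 647, 630 and 633 FPKM in WT and 633, 670 and 841 FPKM in Gde2KO, with Gde2KO replicate 3 above the rest. Cox4i2, known as the lung form, stood at 1.62, 1.52 and 2.06 FPKM in WT and 2.33, 1.69 and 1.86 FPKM in Gde2KO, or 0.221% to 0.367% of the sum of both genes.

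For subunit 6a, the common form Cox6a1 stood at 743, 781 and 455 FPKM in WT and 713, 729 and 419 FPKM in Gde2KO, with replicate 3 lowest in both genotypes. In both of these libraries its leading assembled transcript had 2 exons, against 3 elsewhere. By fragments per gene, described below with Ndufv2, Cox6a1 stood at 352, 368 and 340 in WT and 356, 374 and 295 in Gde2KO, with replicate 3 nearer the others. The heart and muscle form Cox6a2 was listed at 0 in WT replicate 1, at 0.311 and 0.686 FPKM in WT replicates 2 and 3, and at 0.867, 0.834 and 0.904 FPKM in Gde2KO. Its mean was under 1 FPKM, so it was not tested. For subunit 6b, Cox6b1 stood at 530, 486 and 479 FPKM in WT and 508, 562 and 505 FPKM in Gde2KO, whereas the testis form Cox6b2 stood at 2.77, 3.42 and 3.10 FPKM in WT and 3.19, 1.81 and 3.17 FPKM in Gde2KO.

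For subunit 7a, Cox7a2 stood at 239, 88.7 and 236 FPKM in WT and 170, 100.4 and 129 FPKM in Gde2KO, a wide and overlapping range. The heart and muscle form Cox7a1 stood at 4.92, 5.51 and 10.4 FPKM in WT and 5.44, 4.37 and 12.2 FPKM in Gde2KO, with replicate 3 highest in both genotypes. For subunit 8, Cox8a stood at 153, 663 and 409 FPKM in WT and 538, 510 and 640 FPKM in Gde2KO, and the value of WT replicate 1 lay far below the others.

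The heart and muscle form Cox8b stood at 3.41, 3.99 and 5.21 FPKM in WT and 3.46, 3.93 and 2.45 FPKM in Gde2KO. The testis form Cox8c was listed at 0 in all 6 libraries. Cox7b2, a testis form of subunit 7b, was listed at 0 in WT replicates 2 and 3 and in Gde2KO replicate 2, and at 3.36, 1.38 and 1.20 FPKM in WT replicate 1 and Gde2KO replicates 1 and 3. In each pair the common form was the higher in every library, for subunit 7b too, where Cox7b lay between 201 and 451 FPKM.

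**Figure D2:**
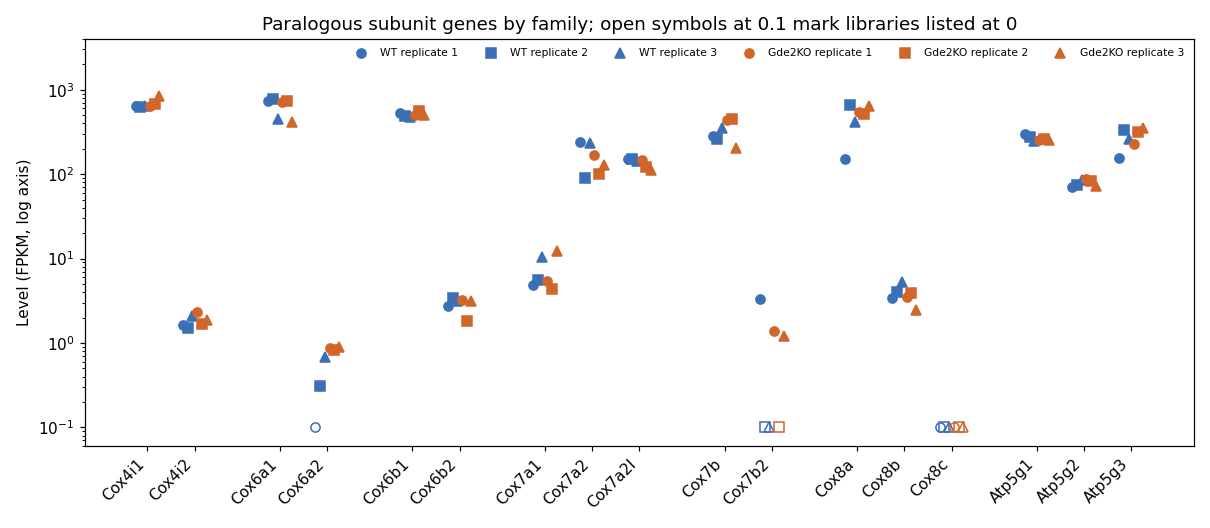
FPKM level (log axis) of paralogous subunit genes in each of the 6 libraries, grouped by family, with open symbols at the foot for libraries listed at 0. The forms known from lung, heart, muscle or testis lie at or below 12.2 FPKM, and the common forms of complex IV at or above 88.7 FPKM.

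A feature the choice of members did not use was the sequence before their start sites. NRF1 (nuclear respiratory factor 1) is a transcription factor known to bind a GC-rich palindrome at many respiratory chain genes, and ETS factors of the GABP family and YY1 are known at others. Promoter windows of 300 bases, 250 before and 50 after the annotated start, came from RefSeq on GRCm38.p6 and were found for 64 members, which have 69 windows. On either strand, the palindrome, GCGCA followed by its reverse complement, was in 5 of the 69 (7.25%) and in 0.971% of all 32851 windows. The looser form GCGCA, any base, then GCGC, which includes the palindrome, was in 18 (26.1%, against 4.60%). The ETS core CCGGAAG was in 16 (23.2%, against 8.86%), the YY1 motif AAGATGGCG in 7 (10.1%, against 1.40%) and the GC box GGGCGG in 27 (39.1%, against 35.7%). Median GC content was 57.3% in the member windows and 52.7% in all windows, and the part of base composition in these shares was not tested. A match describes letters and does not show binding.

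Shown here, with the palindrome in capitals, are stretches of 60 bases 5′ to 3′ on the gene's strand. They come from the 4 members whose palindrome lies wholly upstream of the RefSeq start. The stretches are on GRCm38.p6 at chr17:56717677-56717736 (plus strand) for Ndufa11, chr5:115349086-115349145 (minus) for Cox6a1, chr15:102671055-102671114 (minus) for Atp5g2 and chr5:108434415-108434474 (minus) for Atp5k. In GENCODE vM21 the gene begins further upstream for Atp5g2 (102672352) and Atp5k (108434448). By that annotation the Atp5g2 palindrome lies inside the gene, and that of Atp5k nearly so.
Ndufa11: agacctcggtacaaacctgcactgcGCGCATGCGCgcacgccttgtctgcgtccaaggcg
Cox6a1: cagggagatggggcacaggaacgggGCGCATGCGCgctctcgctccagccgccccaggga
Atp5g2: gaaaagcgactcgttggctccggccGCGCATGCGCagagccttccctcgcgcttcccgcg
Atp5k: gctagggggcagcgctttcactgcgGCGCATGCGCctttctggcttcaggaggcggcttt
The flanks differ from gene to gene beside the shared palindrome. These genes did not share a direction between the genotypes: their log2 differences were -0.20, -0.09, 0.08 and 0.20 in the order printed.

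The comparison of the genotypes asked whether loss of GDE2 was accompanied by other levels of respiratory chain messages. No member passed limma's test at a Benjamini-Hochberg adjusted p under 0.05, where 15 of the 12894 genes tested did (0.116%). The smallest adjusted p among the members was 0.882. At an unadjusted p under 0.05 there were 2 members, 2.53% of the 79, against 3.91% of all genes tested. In 8 members (10.1%) the libraries of the genotypes did not overlap, against 10.9% of all genes tested. Of these 8, 6 were higher in Gde2KO and 2 lower, where 5.06% of all genes tested were higher and 5.79% lower. The shares of members in either direction, 2.53% and 10.1%, lay near or below the background. By direction, the 6 higher members were a larger share of the 79 than 5.06%. The 2 lower were a smaller share than 5.79%. This split was not tested. In bulk tissue, fewer cells of a type and less RNA per cell cannot be told apart.

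Most differences were small, as they were over all genes tested. On the log2(FPKM + 0.1) scale, 4 of 79 members differed by over 1.5-fold, as did 735 of the 12894 genes tested. The 95% interval of 50 members excluded a change of 1.5-fold in either direction. It did so for 9392 of all genes tested, a larger share. More members leaned up than down in Gde2KO, 53 against 26 (67.1% higher, against 50.1% of all genes tested). A lean was not particular to the members: of 31 proteasome genes 25 were higher and 6 lower. Of 75 cytosolic ribosomal protein genes, 42 were higher and 33 lower. The median log2 difference of the members was 0.08, against 0.00 over all genes tested, 0.06 over proteasome genes and 0.01 over ribosomal protein genes. By complex it was 0.06 for I, 0.08 for II, 0.07 for III, 0.10 for IV and 0.10 for V. For complex I it was 0.02 by fragments per gene, a measure described below with Ndufv2, and -0.00054 without WT replicate 2.

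The lean was smaller without 1 library. Relative to each gene's own mean, the median member stood at -0.02, -0.04 and 0.00 in WT replicates 1 to 3 and at -0.04, 0.01 and 0.13 in Gde2KO replicates 1 to 3 (log2). Of the 79 members, 34 were highest in Gde2KO replicate 3 (43.0%, against 26.8% of all genes tested). The same share was 41.3% among 75 cytosolic ribosomal protein genes and 51.6% among 31 proteasome genes. Without that library the median log2 difference of the members was 0.04, with 49 higher. That of complex I was 0.01, of complex II -0.01 and of complex III 0.04. Complexes IV and V kept more of the lean. Whichever library was left out, the median was at least 0.070 for complex IV. For complex V it was at least 0.062, except for 0.037 without WT replicate 1.

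**Figure D3:**
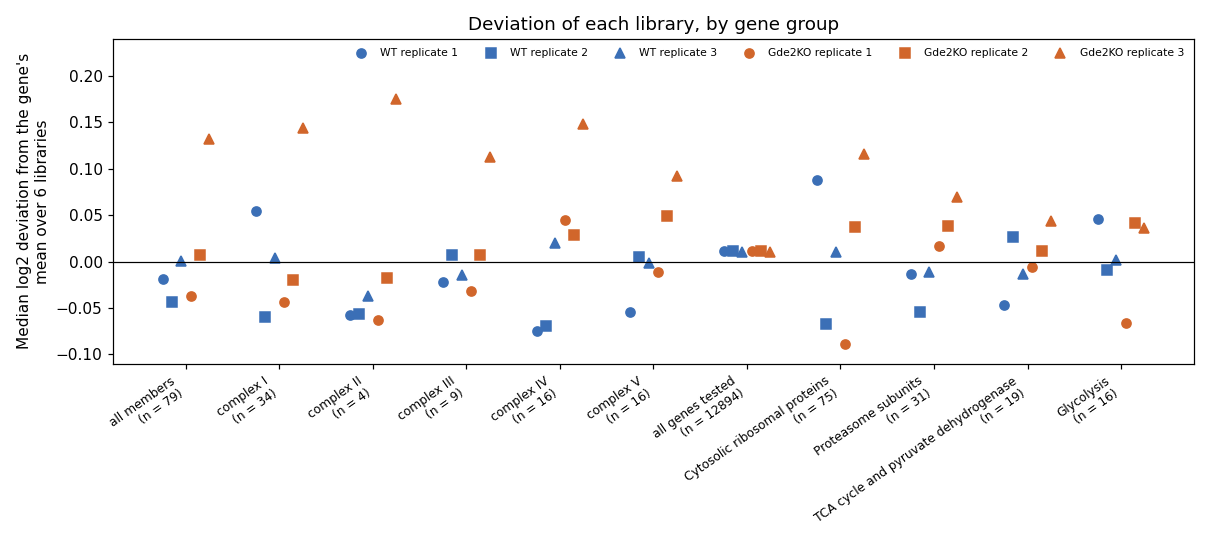
Median log2 deviation of each library from a gene's own mean over the 6 libraries, for the members, each complex, all genes tested and other gene groups, with WT in blue and Gde2KO in orange. Gde2KO replicate 3 is highest in the members, at 0.13, in every complex and in the ribosomal, proteasome and citric acid cycle lists.

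In complex I, 21 genes were higher and 13 lower in Gde2KO. Ndufv2 had the smallest unadjusted p of all members and, with Sdhb, was 1 of the 2 under 0.05. It stood at 187, 178 and 185 FPKM in WT and 146, 153 and 124 FPKM in Gde2KO, so every Gde2KO library was below every WT library. The log2 difference was -0.39 (95% interval -0.63 to -0.14; limma adjusted p = 0.882).

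The assembled Ndufv2 transcript differed in extent as well. Its first exon held 203, 206 and 189 bases in WT and 440, 364 and 511 bases in Gde2KO, and the leading transcript 850 to 867 bases in WT and 1025 to 1202 bases in Gde2KO. Fragments per gene is the FPKM multiplied by the full assembled length. This lessens the part of length in the value but may not remove it, as Ndufa6 below shows. By it Ndufv2 stood at 161, 156 and 159 in WT and 153, 157 and 147 in Gde2KO, which overlap. The log2 difference by fragments was -0.06 (limma adjusted p = 0.866).

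Ndufs3, a core subunit of the ubiquinone module, stood at 87.2, 88.9 and 94.7 FPKM in WT and 98.1, 100.7 and 121 FPKM in Gde2KO. All Gde2KO libraries were above all WT libraries, with replicate 3 the highest, at a log2 difference of 0.24 (interval -0.02 to 0.49; limma adjusted p = 0.882), or 0.14 without replicate 3. Ndufa11, an accessory subunit of the membrane arm, stood at 211, 224 and 220 FPKM in WT and 203, 171 and 197 FPKM in Gde2KO. Its Gde2KO libraries were all below WT, at a log2 difference of -0.20 (-0.42 to 0.02; limma adjusted p = 0.882), or -0.13 without Gde2KO replicate 2. By fragments per gene Ndufa11 stood at 117, 116 and 114 in WT and 116, 116 and 96.9 in Gde2KO, which overlap, at -0.09. The other complex I genes without overlap were Ndufv3, Ndufb6 and Ndufv1, all higher in Gde2KO. Ndufs3 stayed without overlap by fragments per gene too, at 89.6 to 95.6 in WT and 98.6 to 121 in Gde2KO. So did Ndufv1 (161 to 163 and 167 to 205) and, narrowly, Ndufb6 (51.8 to 54.5 and 54.6 to 74.0), whereas Ndufv3 overlapped.

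In complex II, all 4 genes had a higher mean in Gde2KO. Sdhb stood at 112, 112 and 107 FPKM in WT and 124, 135 and 120.2 FPKM in Gde2KO, without overlap. Its log2 difference was 0.19 (0.01 to 0.37; limma adjusted p = 0.882). By fragments per gene Sdhb stood at 143, 126 and 120.2 in WT and 143, 151 and 137 in Gde2KO, which overlap, at 0.15. The membrane anchor genes overlapped.

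Sdhc stood at 88.4, 89.8 and 95.6 FPKM in WT and 90.3, 91.1 and 111 FPKM in Gde2KO, and Sdhd at 78.3, 74.5 and 71.5 FPKM in WT and 72.9, 70.5 and 92.8 FPKM in Gde2KO. Gde2KO replicate 3 was the highest library for both. Their log2 differences were 0.09 and 0.06 with it and -0.01 and -0.06 without it.

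In complex III, 6 genes were higher and 3 lower, and all 9 overlapped between the genotypes. The smallest p-values were those of Uqcrh, with the library values given above and a log2 difference of 0.19 (-0.14 to 0.52), or 0.07 without Gde2KO replicate 2, and of Uqcrfs1 and Uqcrc2. Uqcrfs1 stood at 93.0, 99.0 and 106 FPKM in WT and 103, 102 and 149 FPKM in Gde2KO, with only replicate 3 above the WT range. Its log2 difference was 0.22 with that library and 0.04 without it. Uqcrc2 stood at 109, 109 and 105 FPKM in WT and 106, 111 and 126 FPKM in Gde2KO, at 0.08 (-0.12 to 0.29), or 0.01 without Gde2KO replicate 3. Uqcrc2 lies on chromosome 7, as Gdpd5 does, 21.2 Mb away, and is the member nearest to the targeted gene.

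In complex IV, 11 of the 16 tested genes were higher and 5 lower, and none separated the genotypes. Cox7a2l, the supercomplex factor, had the smallest p, at 152, 150.05 and 142 FPKM in WT and 146, 121 and 113 FPKM in Gde2KO. The log2 difference was -0.23 (-0.51 to 0.04; limma adjusted p = 0.882). Its first exon held 137 to 225 bases in WT and 227, 446 and 446 bases in Gde2KO, and by fragments per gene the log2 difference was 0.00. Cox6c, a small subunit of the complex, stood at 409, 427 and 375 FPKM in WT and 422, 468 and 614 FPKM in Gde2KO, with replicate 3 the highest, at 0.30 (-0.09 to 0.68), or 0.14 without replicate 3. Cox8b, with values given above, stood at -0.35 (-0.91 to 0.21), at -0.16 without Gde2KO replicate 3 and at -0.19 without WT replicate 3. Without Gde2KO replicate 3 the value of Cox7a2l was -0.15.

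In complex V, 11 genes were higher and 5 lower, and 1, the gamma subunit gene Atp5c1, separated the genotypes. Atp5c1 lay between 206 and 214.0 FPKM in WT and between 214.3 and 227 FPKM in Gde2KO. The gap was far smaller than the range within either genotype. Atp5c1 stayed without overlap by fragments per gene, at 256 to 261 in WT and 266 to 278 in Gde2KO. The smallest p-values belonged to Atp5d, Atp5a1 and Atp5mpl, a small membrane subunit. Atp5d stood at 118, 165 and 138 FPKM in WT and 173, 166 and 149 FPKM in Gde2KO, at a log2 difference of 0.23 (-0.12 to 0.57), or 0.11 without WT replicate 1 and 0.35 without WT replicate 2. Atp5a1 stood at 453, 416 and 347 FPKM in WT and 425, 457 and 515 FPKM in Gde2KO. Its genotypes overlapped, as did those of Atp5mpl, at 124, 160 and 176 FPKM in WT and 173, 154 and 226 FPKM in Gde2KO. The log2 difference of Atp5a1 was 0.20, or 0.10 without WT replicate 3 and 0.13 without Gde2KO replicate 3. That of Atp5mpl was 0.26, or 0.12 without WT replicate 1 and 0.11 without Gde2KO replicate 3.

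**Figure D4:**
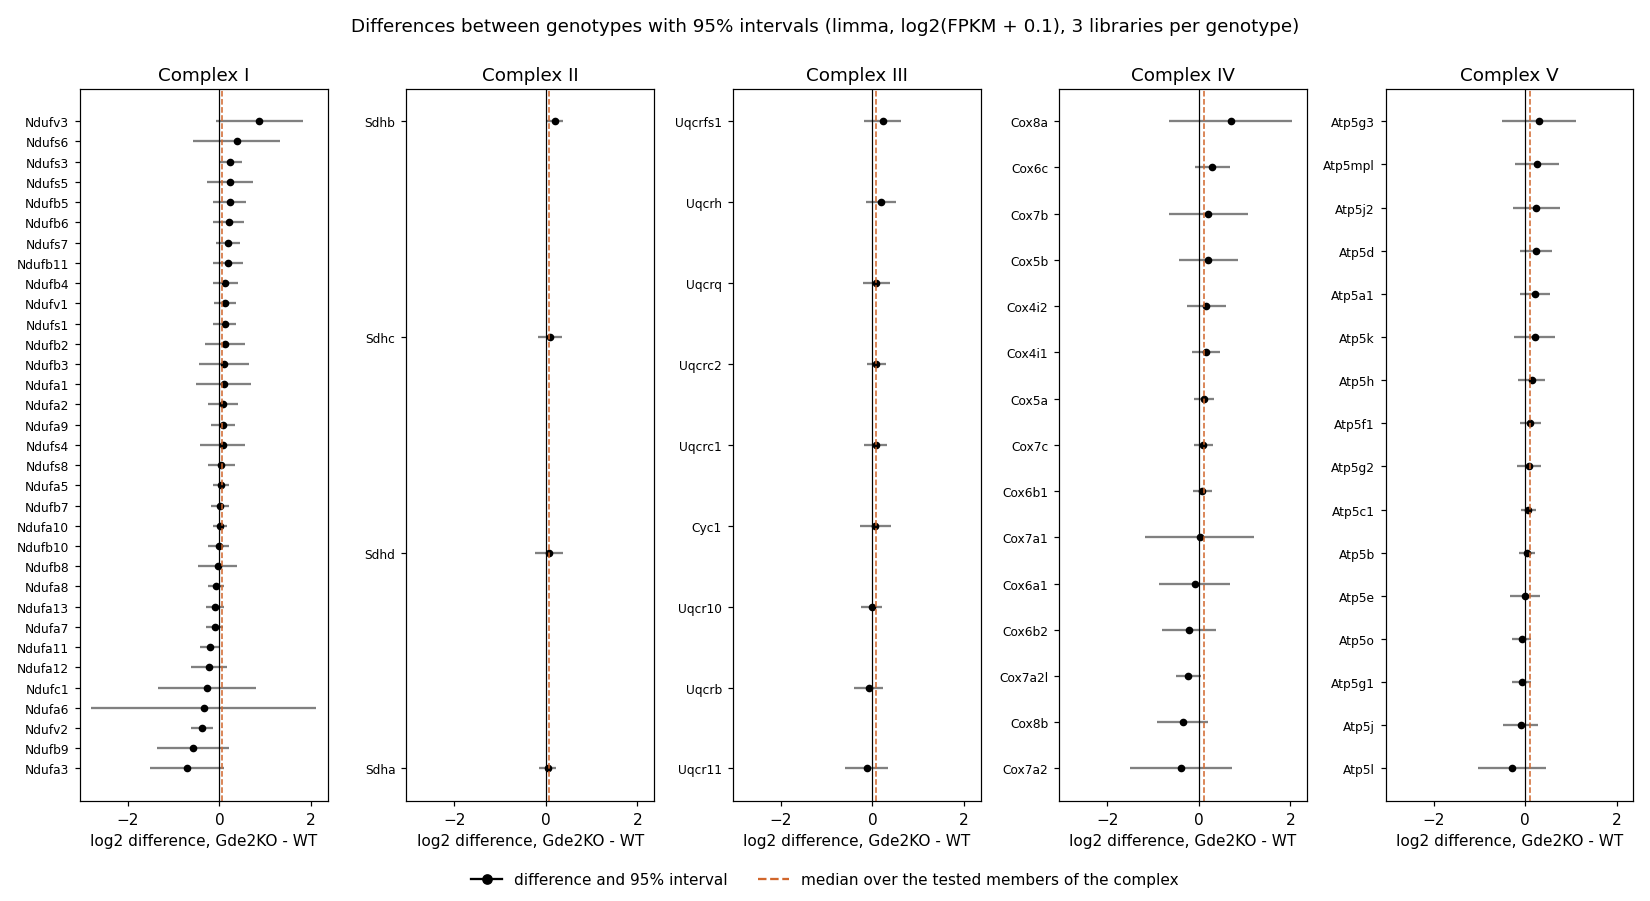
Log2 difference between Gde2KO and WT with its 95% interval (limma, 3 libraries per genotype) for the tested members reported here, by complex, with the complex median over all tested members as a dashed line; Cox7b2, listed at 0 in 3 libraries, is not drawn. The medians lie between 0.06 and 0.10, and the intervals of most members include 0.

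The 4 differences over 1.5-fold each came with libraries far apart within a genotype. Ndufv3, an accessory subunit of the NADH-oxidising module, stood at 44.2, 36.4 and 16.1 FPKM in WT and 50.04, 56.6 and 56.4 FPKM in Gde2KO. The low WT replicate 3 had a leading transcript of 783 bases, against 303 to 412 bases in the other 5 libraries. The log2 difference was 0.87 (-0.08 to 1.83), and 0.40 by fragments per gene. The other differences of that size were Ndufa3 (-0.71), Cox8a (0.69) and Cox7b2, which was listed at 0 in 3 libraries.

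Such ranges went together with the extent of the assembled transcript. The members varied more within a genotype than other genes did, with a median SD of 0.173 (log2) against 0.141 over all genes tested. By fragments per gene the same figures were 0.134 and 0.126. In 13 members (16.5%, against 9.76% of all genes tested) the highest library was over 2-fold above the lowest. The library with the lowest level was also the one with the longest leading transcript in 10 of these 13 (76.9%), against 29.4% of the 1259 genes tested with such a range. Without regard to range, this held for 44.9% of the members, 50.7% of ribosomal protein genes, 58.1% of proteasome genes and 28.6% of all genes tested. In 12 of the 13 a leading transcript began at least 100 bases upstream of the annotated gene in some library, against 41.5% of those 1259 genes.

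Ndufa6, an accessory subunit of the matrix arm, had the widest range. It stood at 213, 46.1 and 205 FPKM in WT and 222, 135 and 32.6 FPKM in Gde2KO. Its leading transcript measured 425, 1321 and 429 bases in WT and 432, 571 and 1904 bases in Gde2KO, and the longest 2 began 879 and 1461 bases upstream of the annotated start. The 3 libraries with the longest transcripts had the 3 lowest levels, in reverse order of length. By fragments per gene Ndufa6 stood at 93.9, 61.2 and 91.0 in WT and 99.5, 77.9 and 61.4 in Gde2KO, a range under 2-fold. The 3 libraries with the longest transcripts were again the 3 lowest, so this measure still went with length.

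In Cox8a, the leading transcript of WT replicate 1 had 9 exons and 2717 bases, ran into a neighbouring gene and stood at 153 FPKM. In the other 5 libraries it had 420 to 643 bases and stood at 409 to 663 FPKM. By fragments per gene 1 member, Cox6b2, exceeded a 2-fold range, as did 944 of the 12894 genes tested. Cox8a and Cox7b2 had a library at 0 by that measure and were not counted, and the same held for 677 of all genes tested. In Cox8a this was WT replicate 1, whose joined transcript was assigned to the neighbour.

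**Figure D5:**
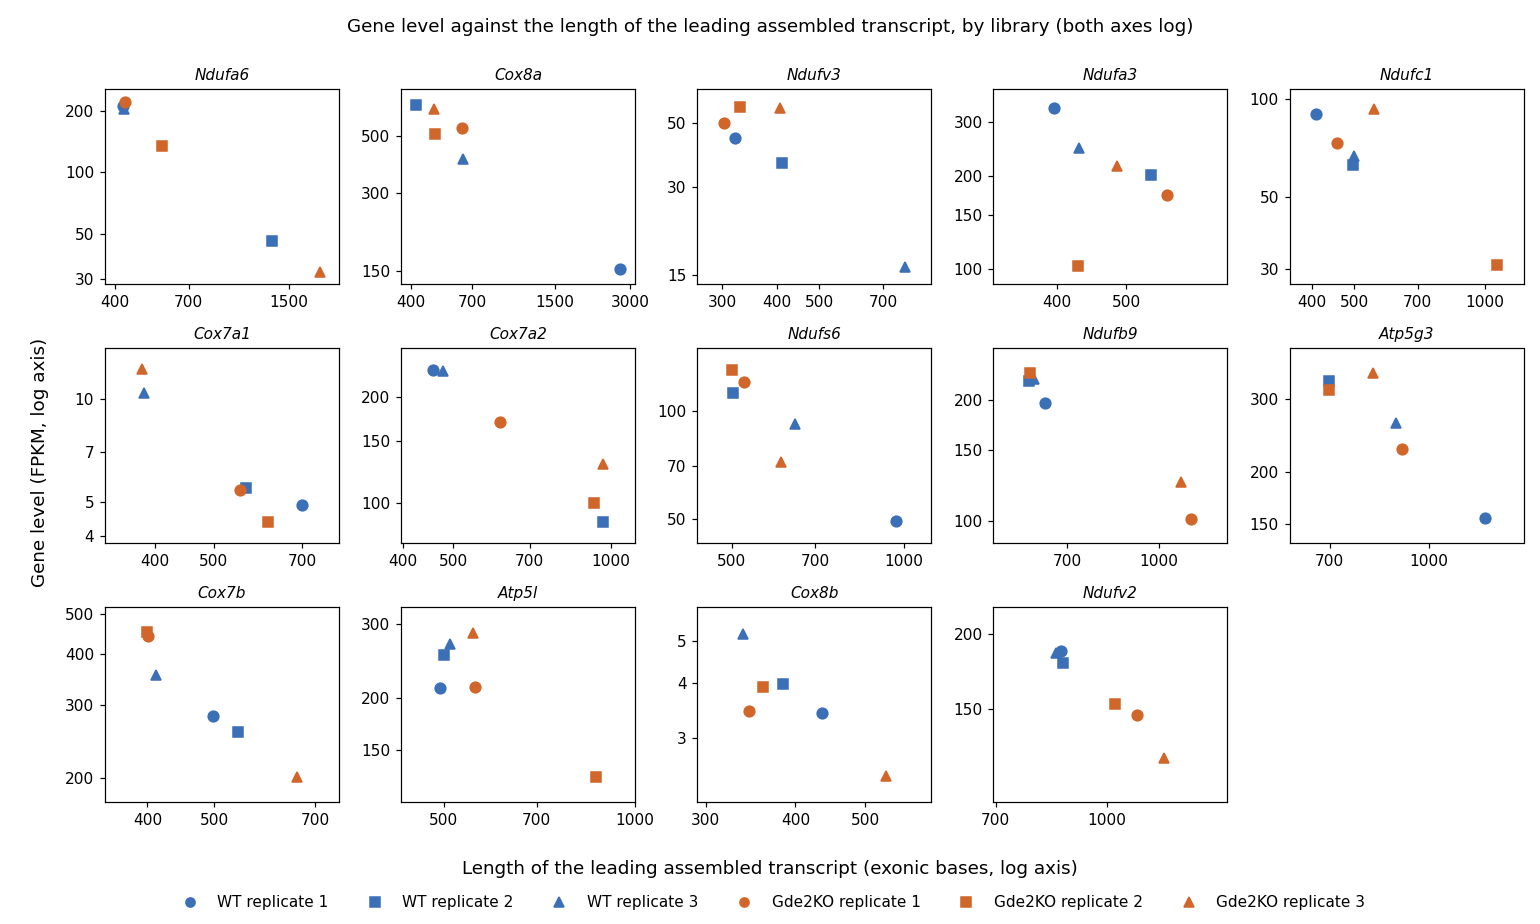
FPKM level against the length of the leading assembled transcript (both log axes) in each of the 6 libraries, for the 13 members with more than a 2-fold range and for Ndufv2. In 10 of the 13 the lowest point is also the farthest to the right.

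The authors' confidence bounds for the leading transcripts of members had a median half-width of 4.74% of the FPKM. The widest was 20.04% among transcripts of at least 10 FPKM and 53.5% among all. In Cox6b2, the member over 2-fold by fragments, they ran from 4.27 to 9.78 FPKM in WT replicate 2 and from 0.521 to 1.70 FPKM in Gde2KO replicate 3. These bounds belong to different transcripts, of 241 and 515 bases. The level of the gene in those libraries was 3.42 and 3.17 FPKM. Its fragments were highest in WT replicate 1 (1.91) and lowest in Gde2KO replicate 2 (0.882). The bounds cover the fragments assigned to a model and not the choice of model.

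Few members came with splice variants that could be followed. The leading transcript had an annotated intron chain in all 6 libraries for 52 of the 79 members, and 3 members kept several chains in all 6. Atp5g1-201, one of 2 transcripts of the subunit c gene, made up 42.3% of the assembled FPKM in WT replicate 1 and 12.6% to 16.1% in the other 5 libraries. Uqcr10-203 made up 10.6% to 13.1%. None of the 6 isoforms of these members separated the genotypes.

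Processed copies limit how finely some levels can be read. Coding sequences with at least 95% identity over at least 80% of their length were found elsewhere in the annotation for 20 members, 37 copies in all, of which 34 are pseudogenes. For 6 members the copies carried over 1% of the member's level. Ndufa12 averaged 135 FPKM and its processed pseudogene Gm15920, on chromosome 5, 111 FPKM. Ndufs5 averaged 145 FPKM and its copy BC002163 66.6 FPKM, listed at 0 in Gde2KO replicate 3 and at 49.97 to 100.3 FPKM elsewhere. For Uqcrb the copies reached 27.2% of the member's level, for Cox5b 16.4%, for Atp5h 10.4% and for Atp5o 3.48%. How the authors' alignment divided reads between a gene and such a copy cannot be read from these values, so the levels of these 6 genes are uncertain. Atp5l had the most copies, 8, all listed at 0.

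The 13 subunits encoded by mitochondrial DNA were not analysed here, since the assemblies listed no transcript of that chromosome. Of 46 tested respiratory chain assembly factors, 27 were higher and 19 lower in Gde2KO, with 0 called by limma and 3 at an unadjusted p under 0.05. Ndufaf5, an assembly factor of complex I, stood at 9.68, 8.49 and 8.50 FPKM in WT and 23.2, 17.5 and 24.9 FPKM in Gde2KO, without overlap (log2 difference 1.28; limma adjusted p = 0.105). Its leading transcript had 3061 to 3132 bases in WT and 1132 to 1236 bases in Gde2KO, and its fragments per gene were 26.3 to 30.1 in WT and 23.3 to 31.6 in Gde2KO. The level and the fragments thus gave different pictures of this gene, separate by the first and overlapping by the second. Surf1, an assembly factor of complex IV, stood at a log2 difference of -0.30 and Ttc19, of complex III, at 0.30.

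Other genes of energy metabolism also had no call. Of 19 tested genes of the citric acid cycle and pyruvate dehydrogenase, 13 had a higher and 6 a lower mean in Gde2KO (median log2 difference 0.05). Of 9 genes for cytochrome c, the ADP/ATP and phosphate carriers and related proteins, 7 were higher and 2 lower, and of 9 uncoupling and antioxidant genes also 7 and 2. Of 16 glycolytic genes, 10 were higher and 6 lower. An unadjusted limma p under 0.05 was found for 3 of these 16, where 3.91% of all genes tested had one. Gapdh, a glycolytic gene, stood at 123, 115 and 128 FPKM in WT and 95.2, 93.8 and 68.9 FPKM in Gde2KO, without overlap (log2 difference -0.52, limma adjusted p = 0.882). Its fragments per gene, 186, 181 and 195 in WT and 167, 142 and 103 in Gde2KO, did not overlap either. Its leading transcript had 915 to 1515 bases in WT and 1424 to 1739 bases in Gde2KO. Near-identical copies were sought for the members only. How far copies limit the level of Gapdh and its difference was therefore not tested.

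Of 13 tested regulators of mitochondrial biogenesis, 5 were higher and 8 lower. Ppargc1a, the coactivator known as PGC-1alpha, stood at 9.65, 10.4 and 9.27 FPKM in WT and 9.23, 9.19 and 8.22 FPKM in Gde2KO, a log2 difference of -0.14 with every Gde2KO library just below WT. Polrmt, the mitochondrial RNA polymerase, was listed at 0 in Gde2KO replicates 1 and 3 and at 7.23 FPKM in replicate 2. In WT it stood at 6.25, 7.47 and 7.19 FPKM. A gene without a matched assembled transcript was given 0, so a 0 does not by itself show absence of its RNA. Among all genes tested, 527 had a library at 0. The unadjusted limma p was under 0.05 for 0 of the 13 regulators.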

How the data were processed

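The submitters' processing notes name FastQC (version not given in the sources used here), TopHat2 2.1.1, Cufflinks 2.2.1, Cuffdiff 2.2.1 and the build mm10. Each file the authors deposited is the Cufflinks assembly of 1 library, with FPKM, coverage and confidence bounds per transcript and no reference gene names. All 6 libraries share 1 flow cell and lane per the labels. The labels name no batch of dissection, RNA extraction or library preparation, so such a batch could not be tested. The members and gene lists were chosen with earlier results of these data known.

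Transcripts of at least 200 exonic bases were matched to GENCODE vM21 (GRCm38, the assembly of mm10) by exon overlap on the same strand, and the 13.1% to 14.1% without a strand on either strand. A gene's counted bases were the exonic bases that no other gene of its strand uses and that at least 3 libraries assembled. Summed FPKM was averaged over them, and a gene without a transcript was given 0. Median-of-ratios factors, 0.989 to 1.04, scaled the libraries. Tested were the 12894 genes with 200 or more counted bases and a mean of 1 FPKM or more before scaling. limma 3.58.1 (R 4.3.3) was fitted to log2(FPKM + 0.1) with trend and robust moderation, two-sided, with Benjamini-Hochberg adjustment over these genes and a threshold of 0.05. The pseudocount understates changes of low genes. The script was tested on simulated data. No exact test is given, since 3 libraries against 3 cannot go below 0.10. Copies of the members' coding sequences were sought with BLAST 2.17.0. Values by library are given for the highest member of each complex, the 3 with the smallest p per complex, members listed at 0, the tissue forms and subunit c genes, and up to 3 genes of smallest p per other list. Other members named with values (the wide-range members Ndufv3 and Ndufa6 among them) were chosen after their values were seen. Some members enter counts and medians only, and 1 result is not reported here. Alternatives covered pseudocount, filters, measure of gene level, scaling, zeros, moderation, replicate block and leaving out each library.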

Additional observations from a re-analysis of the deposited data

How the results depend on the processing

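Under all 17 alternatives 0 members were called, and the median log2 difference over members stayed between 0.04 and 0.10. The smallest adjusted p under any of them was 0.304, for Ndufb9 without Gde2KO replicate 2. Over all genes, limma called 15, but 1 with a mean of at least 5 FPKM, 4 with zeros treated as missing, 10 by fragments per gene and 10 to 26 when 1 library was left out. The median level of the members was 145 FPKM, 160 with a mean of at least 5 FPKM and 167 with the plain sum of transcripts, and 144 to 152 when 1 library was left out. When 1 library was left out, the median log2 difference ran from -0.00054 to 0.075 for complex I, from -0.0097 to 0.14 for II, from 0.038 to 0.101 for III, from 0.070 to 0.12 for IV and from 0.037 to 0.095 for V. The lowest were without WT replicate 2 for I and IV, Gde2KO replicate 3 for II and WT replicate 1 for III and V. Of 254 values for 15 named members, 251 kept their direction. The others were Cox7a2l at 0.00019 by fragments per gene, and Sdhc and Sdhd without Gde2KO replicate 3. With 1 library left out, Sdhc ran from -0.0079 to 0.14 and Sdhd from -0.060 to 0.14. Replicate numbers did not pair the libraries: the correlations of same-numbered deviations were 0.01, 0.04 and -0.07. With a replicate block 0 members and 2 of all genes were called, and the median log2 difference of the members was 0.08. The 95% intervals of Ndufa6, Cox7a1 and Cox7b2 reached past 2-fold in both directions, so a change of that size was not detectable there. Within 2-fold lay the intervals of 66 of the 79 members and of 11328 of the 12894 genes tested.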
